A study of Mus musculus with 20 samples.

Results

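RNA-seq of mouse embryonic stem cells sorted as low for both Nanog and Sox2, factors of pluripotency (state 3), was set against RNA-seq of cells sorted as high for both (state 1). All 29692 genes of the deposited RNA-seq table entered the comparison, each by log2((state 3 + 1)/(state 1 + 1)). Embryonic stem cells are cultured pluripotent cells derived from the early embryo. They were grown in 10% fetal bovine serum with leukemia inhibitory factor (LIF), a cytokine that holds mouse embryonic stem cells in self-renewal, and were separated by flow cytometry. State 2, low for Nanog and high for Sox2, is given beside the other states where its value helps to place a gene. The labels name no treatment, genotype, line or reporter that differs between states, and do not say how Nanog and Sox2 were detected in the sort.

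In serum and LIF, mouse embryonic stem cells move between a naive condition, which resembles the epiblast before implantation, and a condition primed for differentiation. Nanog and Sox2 are transcription factors of the circuit that keeps the naive condition. LIF acts on this circuit through STAT3, whereas the FGF and ERK pathway drives exit from it. Cells that leave the circuit lose the naive factors, and enter epiblast, mesoderm, endoderm or neural programmes.

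The study made 12 rRNA-depleted RNA-seq libraries, 3 per sorted state (A, B and C) and 3 of the unsorted total population, and 8 small RNA libraries, 2 per group (D and E). The RNA-seq table holds a single normalized value per gene and group, in which the authors merged the libraries, so no spread between libraries can be given and no p-value was computed. Column totals were 17.3, 16.9 and 17.7 M value units in state 3, state 2 and state 1. The commonest low value, taken as the worth of 1 read, put about 48.0, 60.4 and 55.4 M reads or read pairs behind these columns. A value of 0 therefore allows up to about 1.08 in state 3, 0.84 in state 2 and 0.96 in state 1, the worth of 3 reads, for counting error only. A difference between state 3 and state 1 was called where the authors' deposited EBSeq scores, which are posterior probabilities of patterns of equal and unequal groups, summed to at least 0.95 over all patterns that set these states apart. Nothing in the labels tells whether the 3 libraries of a state were separate cultures, so the scores may measure technical spread alone. In these bulk samples, fewer cells of a type and less RNA per cell cannot be told apart. Below, rose and fell describe state 3 relative to state 1 for called genes, and each log2 value is a difference on the value plus 1 scale, where the ratios of low genes come out too small.

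The genes of the sort followed their labels. Nanog (ENSMUSG00000012396.12; chromosome 6, 122707489 to 122714633 in GRCm38) stood at 440.0 in state 3, 743 in state 2 and 4145 in state 1, and fell by 3.23 on the log2 scale. Sox2 (ENSMUSG00000074637.7; chromosome 3, 34649995 to 34652461) had 1306 in state 3, 3167 in state 2 and 4155 in state 1, with a log2 ratio of -1.67. The Oct4 gene Pou5f1 (ENSMUSG00000024406.16; chromosome 17, 35506032 to 35510777), whose protein binds DNA with Sox2, had 9826 in state 3, 10275 in state 2 and 13810.4 in state 1 and was not called, with a summed score of 0.931. Since Nanog and Sox2 chose the cells, their ratios are a description of the sort.

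Of 29692 genes, 6070 were called (20.4%), 3394 of them higher in state 3 (11.4%) and 2676 lower (9.01%). Among the 16873 genes with a mean of at least 5 over state 3 and state 1, 35.5% were called, 19.8% higher and 15.7% lower. These shares are the background for every gene list below. The lists count all measured members whatever their level, and some hold members with a mean below 5. Of the 12819 genes below that level only 0.63% were called, so shares of such lists come out lower. Rises were wider than falls: the median size of a log2 ratio was 1.18 among genes that rose and 0.66 among genes that fell. A log2 ratio of at least 3 in size was reached by 429 genes that rose and 66 that fell, and one of at least 4 by 188 and 6. The size of a called ratio went with level. At means of 5 to 50 the median size was 2.16, with 778 rises and 281 falls. At means of 500 to 5000 it was 0.55, with 1011 rises and 1202 falls. How far level accounts for the wider rises was not tested. The median log2 ratio of all genes was 0. Genes that rose took 16.9% of the column total in state 3, against 9.16% in state 1, and genes that fell took 15.6% in state 3, against 22.9% in state 1. For 2792 of the genes that rose (82.3%) and 2283 of those that fell (85.3%), the state 2 value lay between the values of state 3 and state 1.

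**Figure D1:**
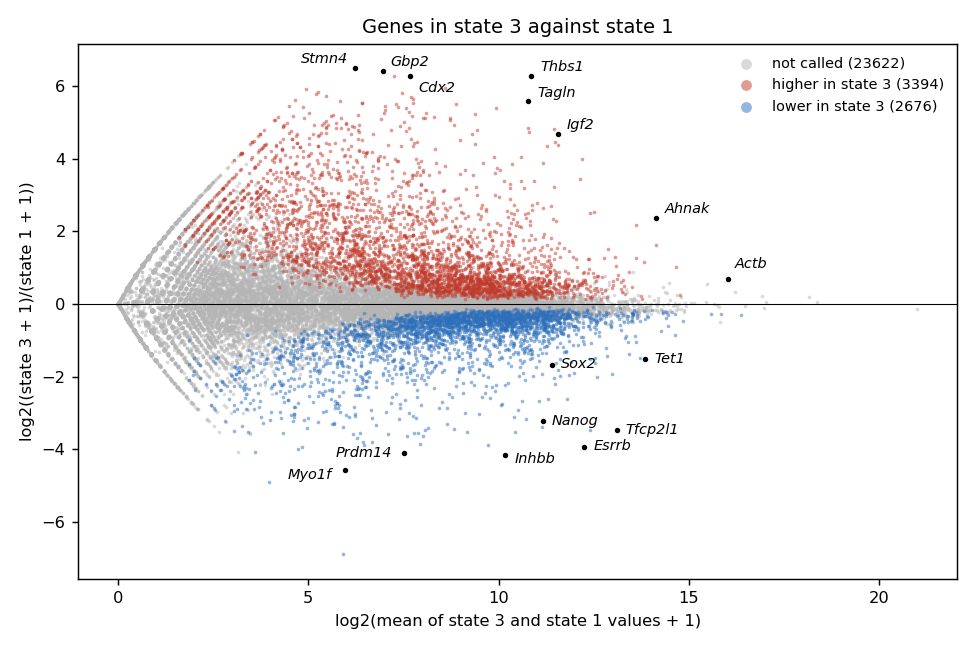
Each point is 1 gene, with log2 of the mean of state 3 and state 1 plus 1 on the x axis and log2((state 3 + 1)/(state 1 + 1)) on the y axis; red points were called higher in state 3, blue points lower and grey points not called. Rises reach further from 0 than falls, with 188 genes at or above 4 and 6 at or below -4.

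The 12 largest rises among called genes joined cytoskeleton, matrix and secreted signals. Stmn4, a microtubule regulator of the stathmin family, had 146 in state 3, 59.4 in state 2 and 0.640 in state 1 (log2 6.49), and Gbp2, an interferon-inducible GTPase, had 247 in state 3, 65.4 in state 2 and 1.94 in state 1 (log2 6.40). The trophectoderm and posterior factor Cdx2 stood at 400.1 in state 3, against 4.18 in state 1. Thbs1, the secreted adhesion protein thrombospondin 1, had 3678 in state 3, 819 in state 2 and 46.6 in state 1 (log2 6.27). The macrophage growth factor Csf1 had 301 in state 3, against 2.92 in state 1, and the hyaluronan synthase Has2 had 404 in state 3, against 6.75 in state 1, while the hyaluronan receptor Cd44 had 166 in state 3, against 2.60 in state 1. The others were the smooth muscle genes Acta2 and Tagln, the secreted protease Prss23, the phospholipid-binding Anxa1 and the matrix protein Spon1, with log2 ratios of 5.95, 5.60, 5.80, 5.65 and 5.60. In each of the 12 genes, state 2 lay between the other states.

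The 12 largest falls held naive factors beside genes better known from other tissues. Myo1f, a class I myosin, fell, with 3.99 in state 3, 14.3 in state 2 and 118 in state 1 (log2 -4.58). Inhbb, the activin and inhibin beta B subunit, had 121 in state 3, 298 in state 2 and 2201 in state 1 (log2 -4.17). The germ cell and naive factor Prdm14 and the nuclear receptor Esrrb are described below. Nkx6-3, a homeobox gene, had 10.2 in state 3, against 165 in state 1, and Msc, which encodes the helix-loop-helix factor musculin, had 37.3 in state 3, against 479 in state 1. Jam2, a junction adhesion molecule, had 106 in state 3, against 1572 in state 1. Mymx, the myomixer micropeptide of myoblast fusion, and Mobp, a myelin-associated protein, fell to 30.5 and 10.6 in state 3, against 457 and 161 in state 1. Accsl, the nonclassical MHC gene H2-M5 and the adhesion molecule Ceacam1 completed the group, with log2 ratios of -3.68, -3.64 and -3.58.

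By the size of the change in deposited value, which favours long and abundant transcripts, rises were led by the actin cytoskeleton. Actb, cytoplasmic beta actin, had 82397 in state 3, 57694 in state 2 and 50747 in state 1 (log2 0.70). Ahnak, a very large scaffold protein, had 30029 in state 3, against 5851 in state 1. The filamins Flna and Flnc, which cross-link actin, reached 20118 and 8848 in state 3, against 9066 and 558 in state 1. Myh9, nonmuscle myosin heavy chain IIA, had 17649.8 in state 3, against 7360.1 in state 1. The cadherin Fat1, the imprinted retrotransposon-derived gene Peg10, the integrin Itga3 and the endocytic receptor Lrp2 were also among the 10 largest rises in value. The largest fall in value was in the chaperone Hsp90ab1, with 76744 in state 3, against 94597 in state 1. Tfcp2l1, the KAP1 corepressor gene Trim28, the dioxygenase Tet1, the actin regulator Enah, the chaperone Hspa8, the ubiquitin ligase Trip12, the mismatch repair gene Msh6, the ferritin light chain Ftl1 and the cell cycle factor Mybl2 completed the 10 largest falls, in this order. Enah, which extends actin filaments, fell with 7090.4 in state 3, 9417 in state 2 and 19774 in state 1 (log2 -1.48).

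The naive network fell. Of 21 measured factors 17 were called lower and 0 higher, Nanog among them, with a median log2 ratio of -2.62. Prdm14 had 19.1 in state 3, 67.8 in state 2 and 347 in state 1 (log2 -4.11) and Esrrb, which binds with Oct4 and Sox2 at naive enhancers, had 602 in state 3, 1945 in state 2 and 9206 in state 1 (log2 -3.93). Tfcp2l1, a naive factor downstream of LIF, had 1452 in state 3, 3698 in state 2 and 16245 in state 1. Tbx3, a T-box factor, and Nr0b1, an orphan nuclear receptor, fell to 219 and 89.9 in state 3, against 2549.5 and 1052 in state 1. Tcl1, a coactivator of Akt kinase, had 43.5 in state 3, 157 in state 2 and 492 in state 1. The 4 members that were not called were Nacc1, Myc, Gbx2 and Tcf15, with log2 ratios of -0.32, 0.60, 0.20 and -0.94.

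Genes shared by the naive and later pluripotent conditions were split. Of 26 measured genes 12 fell, 3 rose and 11 were not called, with a median log2 ratio of -0.50. The largest falls were in Dppa3 (Stella), a maternal and germ cell factor, with 26.5 in state 3, 167 in state 2 and 162 in state 1, and in Fbxo15, an F-box protein used as a reporter of pluripotency, with 279.9 in state 3, 691 in state 2 and 1341 in state 1. Zfp296, the Ras-like Eras, the sort gene Sox2 and the alkaline phosphatase gene Alpl had log2 ratios of -2.14, -1.96, -1.67 and -1.55. The members that rose were Cdh1 (E-cadherin), Epcam and the let-7 regulator Lin28b, with 14178 in state 3, against 7766 in state 1, with 2599 in state 3, against 1588 in state 1, and with 1492 in state 3, against 993 in state 1. Cdh1 and Epcam are adhesion genes of the stem cell surface.

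Genes of the formative and primed epiblast rose. Of 20 measured members 12 rose and 3 fell, with a median log2 ratio of 1.16. Fgf5, the growth factor of the post-implantation epiblast, had 122 in state 3, 87.3 in state 2 and 2.93 in state 1 (log2 4.97). Pou3f1, a POU factor of the epiblast and neural plate, had 1947 in state 3, 1526 in state 2 and 151 in state 1, and the Wnt effector Lef1 had 384 in state 3, 375 in state 2 and 33.6 in state 1. For these 3 genes state 2 was nearer to state 3, both by difference in value and on the log2 scale. Nkx1-2, a homeobox gene of the caudal epiblast, had 111 in state 3, 6.40 in state 2 and 2.91 in state 1. Cdh2 (N-cadherin) had 616 in state 3, 227 in state 2 and 31.0 in state 1. Sox3 had 309 in state 3, 107 in state 2 and 19.3 in state 1. By difference in value, state 2 was nearer to state 1 in Nkx1-2, Cdh2 and Sox3. On the log2 scale this held for Nkx1-2, whereas in Cdh2 and Sox3 state 2 was nearer to state 3. The 3 falls were in Otx2, Etv5 and Tcf7l1, with log2 ratios of -1.06, -0.81 and -0.54. Otx2, a homeobox factor of the early primed epiblast, had 148 in state 3, 335 in state 2 and 308 in state 1, so only state 3 stood low.

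**Figure D2:**
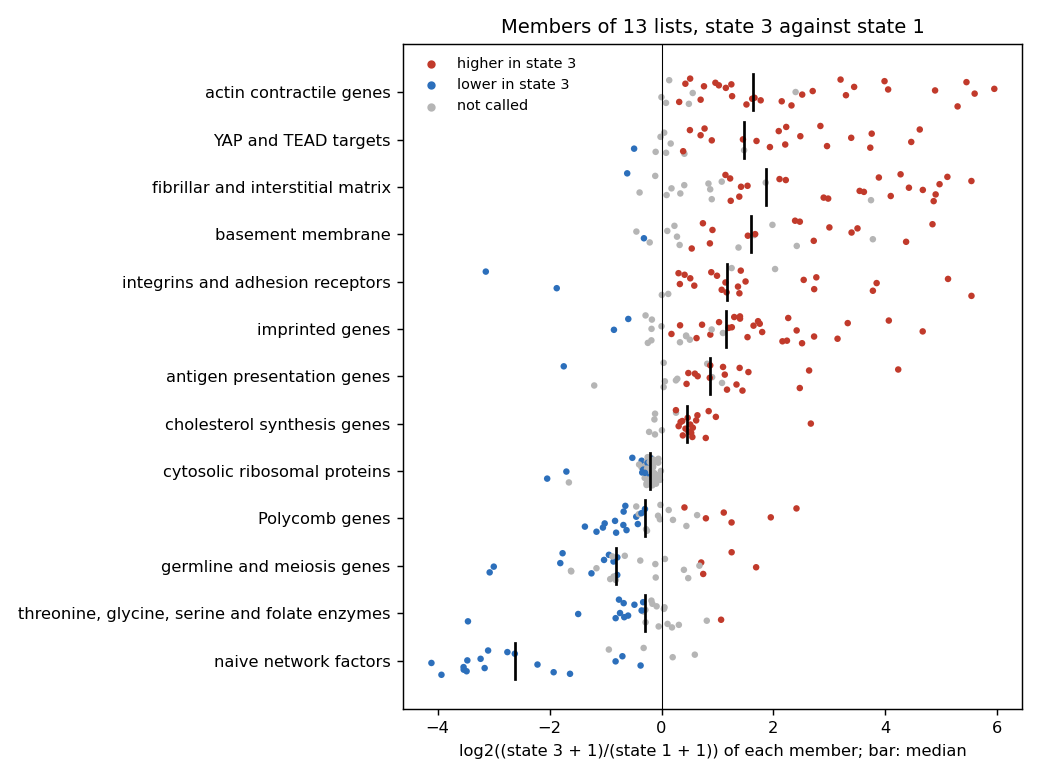
Each point is 1 measured member of a list, placed by log2((state 3 + 1)/(state 1 + 1)), in red where it was called higher in state 3, blue where lower and grey where not called, with the median of the list as a black bar. The actin contractile genes lie to the right with a median of 1.64, and the naive network factors lie to the left with a median of -2.62.

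Lineage factors were mostly higher where called, at low values. Of 13 GATA, Sox and related endoderm factors 6 rose and 0 fell, with a median log2 ratio of 1.18. Foxa2, a pioneer factor of endoderm, had 100.3 in state 3, 143 in state 2 and 5.77 in state 1, and Sox17 had 23.6 in state 3, 2.65 in state 2 and 1.60 in state 1. Gata4 had 106 in state 3, 31.6 in state 2 and 15.8 in state 1, Sox18 had 199 in state 3, 366 in state 2 and 59.7 in state 1 and Eomes had 81.7 in state 3, 39.9 in state 2 and 35.5 in state 1. Gata6, which specifies primitive endoderm with Gata4, had 30.8 in state 3, 3.14 in state 2 and 5.51 in state 1, but was not called, with a summed score of 0.831.

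Of 31 T-box and other mesoderm factors 12 rose and 0 fell, with a median log2 ratio of 1.18. Hand1, a factor of heart, extraembryonic mesoderm and trophoblast, had 56.2 in state 3, 11.7 in state 2 and 0.650 in state 1. The forkhead factors Foxf1 and Foxc1 had 38.2 and 26.2 in state 3, 5.15 and 6.43 in state 2, and 0.320 each in state 1, about 1 read. Isl1, a LIM homeobox factor of cardiac progenitors, Twist2, a mesenchymal helix-loop-helix factor, and Myocd, the smooth muscle cofactor of SRF, reached 24.8, 31.6 and 20.7 in state 3, against 0.330, 0.980 and 0.320 in state 1. These genes were near the floor in state 1, so their log2 ratios of 4.28, 4.04 and 4.04 depend on the value added before the logarithm.

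Homeobox genes outside the Hox clusters rose in 16 of 36 measured cases and fell in 3, with a median of 1.44. Six2, a factor of kidney progenitors, had 61.1 in state 3, 60.7 in state 2 and 1.92 in state 1. Irx5, Irx3, Lhx1 and Msx1 had log2 ratios of 3.88, 3.38, 3.57 and 3.46. The 3 falls were in Hesx1, an anterior repressor, Cux2 and Nkx6-2, with 4.48 in state 3, against 34.3 in state 1, with 29.6 in state 3, against 148 in state 1, and with 61.5 in state 3, against 168 in state 1.

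Neural genes were mixed, with 10 of 27 higher, 2 lower and a median of 0.33. The neurofilament genes Nefm and Nefl had 617 in state 3, 205 in state 2 and 16.4 in state 1, and 875 in state 3, 381 in state 2 and 151 in state 1. Nes, the intermediate filament nestin of progenitor cells, had 5446 in state 3, 1759 in state 2 and 248 in state 1 (log2 4.45), and Sox9 had 73.1 in state 3, 57.5 in state 2 and 1.94 in state 1. Gap43, a growth cone protein, had 663 in state 3, against 106 in state 1. The oligodendrocyte factors Olig1 and Olig2 fell, with log2 ratios of -1.05 and -0.89. The rises in this list were thus in filament and growth genes as well as in neural factors.

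Products of the extraembryonic tissues rose. Of 24 measured visceral and parietal endoderm products 15 rose and 1 fell, with a median log2 ratio of 1.81. Cubn (cubilin), an endocytic receptor of visceral endoderm, had 317 in state 3, 19.8 in state 2 and 6.47 in state 1 (log2 5.41), and its partner Lrp2 (megalin) had 9278 in state 3, 6417 in state 2 and 1645 in state 1. Col4a1 and Col4a2, the type IV collagen chains laid down by parietal endoderm and many other cells, had 5754 in state 3, 1767 in state 2 and 277 in state 1, and 3388 in state 3, 951 in state 2 and 117 in state 1. The proteoglycan Srgn, the transcriptional cofactor Cited1 and the thrombin receptor Thbd had log2 ratios of 4.04, 3.85 and 3.30. Apoe, an apolipoprotein, was the sole member that fell, with 2004 in state 3, 2844 in state 2 and 4956 in state 1. Apob, another apolipoprotein, had 279 in state 3, 299 in state 2 and 31.3 in state 1.

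Trophectoderm and placenta genes rose in 17 of 26 measured cases and fell in 3, with a median of 1.48. Beside Cdx2, the simple epithelial keratin pair Krt8 and Krt18 had 5389 in state 3, 1208 in state 2 and 189 in state 1, and 3437 in state 3, 838 in state 2 and 128 in state 1. Their relatives Krt19 and Krt7 had 923 in state 3, 191 in state 2 and 19.4 in state 1, and 249 in state 3, 70.1 in state 2 and 5.18 in state 1. Gata3, a trophectoderm GATA factor, had 84.0 in state 3, 21.1 in state 2 and 5.82 in state 1. The falls were in Tfap2c, a factor shared by trophectoderm and germ cells, and in the homeobox genes Rhox9 and Rhox6, with log2 ratios of -1.81, -1.28 and -1.22. The keratin pair is also made by other simple epithelia.

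Markers of cells that could be carried along with the culture moved with these lists. The labels name no feeder cells. Of 18 measured fibroblast markers 10 rose and 0 fell, with a median of 2.65, and their summed value was 2260.1 in state 3, 1036 in state 2 and 688 in state 1. Col3a1 had 167 in state 3, 21.4 in state 2 and 2.61 in state 1 and Lox had 40.7 in state 3, 12.3 in state 2 and 0.330 in state 1, while Col1a1 had a log2 ratio of 5.11. Dcn (decorin) had 12.4 in state 3, 2.09 in state 2 and 0 in state 1, Lum (lumican) had 1.46 in state 3, 0 in state 2 and 0.320 in state 1, Prrx1 had 2.97 in state 3, 0.560 in state 2 and 0.970 in state 1 and Thy1 had 59.3 in state 3, 42.0 in state 2 and 42.2 in state 1, and none of these 4 was called. Among the fibroblast markers, Dcn was the one listed at 0 in state 1. Of 22 blood and endothelial markers 9 rose and 1 fell, and the values summed to 1308 in state 3, 1369.7 in state 2 and 1032 in state 1. Flt1 and Kdr, the VEGF receptors, had 275 in state 3, against 9.07 in state 1, and 84.2 in state 3, against 6.13 in state 1, and Runx1 had 221 in state 3, against 12.2 in state 1. Fli1 had 20.0 in state 3 and was listed at 0 in state 1, and the leukocyte marker Ptprc had 9.84 in state 3, against 0.330 in state 1. Pecam1, an endothelial and stem cell adhesion molecule, fell, with 162 in state 3, 577 in state 2 and 782 in state 1. Their part in the rise of lineage and matrix genes was not tested.

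The actin contractile apparatus rose widely. Of 34 measured genes 28 rose and 0 fell, with a median log2 ratio of 1.64, and their summed value was 298986 in state 3, 191493 in state 2 and 157274 in state 1. Many of these genes are targets of serum response factor (SRF), which binds the CArG box. The smooth muscle actin gene Acta2 had 763 in state 3, 123 in state 2 and 11.4 in state 1 (log2 5.95) and the actin-binding Tagln had 3445 in state 3, 978 in state 2 and 70.2 in state 1 (log2 5.60). Acta1, skeletal muscle actin, had 392 in state 3, 69.2 in state 2 and 9.03 in state 1, and Actc1, cardiac actin, had 42.7 in state 3 and 3.13 in state 2 and was listed at 0 in state 1. Cnn1 (calponin) and Myl9, the regulatory light chain of smooth muscle myosin, had 325 in state 3, 133 in state 2 and 10.0 in state 1, and 239.6 in state 3, 152 in state 2 and 13.5 in state 1. Srf itself, which lies outside the rule for named genes and was chosen after its values were seen, had 1559 in state 3, 1178 in state 2 and 799 in state 1 (log2 0.96). Acta2, Tagln, Acta1, Cnn1 and Myl9 were each ordered state 3, state 2, state 1 in value.

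Targets of YAP and TEAD, the coactivator and DNA-binding factors of the Hippo pathway, rose in 19 of 27 measured cases and fell in 1, with a median of 1.48. Cyr61 and Ctgf, secreted matricellular proteins, had 3599.9 in state 3, 1517 in state 2 and 342 in state 1, and 1648 in state 3, 1069.8 in state 2 and 351 in state 1. Ankrd1 and the forkhead gene Foxf2 were listed at 0 in state 1, with 23.5 and 21.1 in state 3. The receptor kinase Axl, the ligand Tgfb2 and the ectonucleotidase Nt5e had log2 ratios of 3.76, 3.73 and 2.96. Dock5, a Rac exchange factor, fell (log2 -0.49). Among the factors themselves, Yap1 had 3287 in state 3, 3357 in state 2 and 3535 in state 1, Tead1 had 5211 in state 3, 4449 in state 2 and 5041 in state 1 and neither was called.

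Promoters of RefSeq GRCm38.p6, from 250 bases before to 50 bases after the start of a gene, are shown for genes of these lists that moved together and hold the letters of the factor's site. Capitals mark the match. The first 3 hold a CArG box, searched by its name on both strands:
Acta1 (chr8:123894726-123895025, minus strand): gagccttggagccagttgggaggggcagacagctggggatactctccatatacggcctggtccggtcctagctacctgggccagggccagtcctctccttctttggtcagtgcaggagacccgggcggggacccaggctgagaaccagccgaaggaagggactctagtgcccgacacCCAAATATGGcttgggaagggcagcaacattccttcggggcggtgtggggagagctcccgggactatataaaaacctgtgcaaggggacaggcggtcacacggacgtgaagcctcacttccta
Srf (chr17:46556113-46556412, minus strand): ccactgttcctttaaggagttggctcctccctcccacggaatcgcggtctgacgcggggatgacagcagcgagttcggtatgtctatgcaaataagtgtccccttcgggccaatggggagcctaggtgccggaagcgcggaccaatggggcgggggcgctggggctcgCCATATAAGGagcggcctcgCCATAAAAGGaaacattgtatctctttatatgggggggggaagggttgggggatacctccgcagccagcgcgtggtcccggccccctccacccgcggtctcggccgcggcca
Myl9 (chr2:156775214-156775513, plus strand): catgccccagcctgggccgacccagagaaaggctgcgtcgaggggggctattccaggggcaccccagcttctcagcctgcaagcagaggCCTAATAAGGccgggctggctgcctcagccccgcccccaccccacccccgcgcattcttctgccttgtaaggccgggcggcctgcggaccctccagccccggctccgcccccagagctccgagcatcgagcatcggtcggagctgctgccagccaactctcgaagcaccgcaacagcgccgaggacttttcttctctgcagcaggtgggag
The next 2 hold the TEAD letters GGAATG or their complement:
Cyr61 (chr3:145649936-145650235, minus strand): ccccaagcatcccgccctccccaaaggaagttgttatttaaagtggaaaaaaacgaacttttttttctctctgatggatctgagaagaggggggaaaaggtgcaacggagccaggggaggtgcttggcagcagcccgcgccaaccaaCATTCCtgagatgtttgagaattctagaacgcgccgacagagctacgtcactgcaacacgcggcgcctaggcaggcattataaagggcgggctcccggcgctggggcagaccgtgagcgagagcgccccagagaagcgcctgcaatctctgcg
Ankrd1 (chr19:36119795-36120094, minus strand): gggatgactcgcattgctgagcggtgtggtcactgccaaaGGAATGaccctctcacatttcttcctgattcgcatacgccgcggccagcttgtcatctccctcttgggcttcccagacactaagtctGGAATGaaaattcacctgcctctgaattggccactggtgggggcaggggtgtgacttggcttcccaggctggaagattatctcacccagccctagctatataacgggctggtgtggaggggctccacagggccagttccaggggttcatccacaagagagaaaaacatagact
The last is the promoter of the sort gene Nanog, with the octamer letters ATGCAAA, here on the other strand, next to the Sox letters ACAATG:
Nanog (chr6:122707239-122707538, plus strand): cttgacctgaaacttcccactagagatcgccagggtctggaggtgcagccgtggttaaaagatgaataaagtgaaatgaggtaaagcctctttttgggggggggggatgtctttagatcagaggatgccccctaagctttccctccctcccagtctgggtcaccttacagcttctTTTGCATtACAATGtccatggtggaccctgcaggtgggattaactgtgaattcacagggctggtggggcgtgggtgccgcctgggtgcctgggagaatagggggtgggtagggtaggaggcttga

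A CArG box was present in 7 of the 30 promoters of contractile genes in the RefSeq table (23.3%), against 1.59% of all 27025 promoters. Among genes with a mean of at least 5, the promoters of those that rose held it in 1.88% of 2451 cases, those of genes that fell in 0.980% of 2040 and those of genes not called in 1.25% of 6871. TEAD letters were present in 11 of 19 promoters of the YAP and TEAD list (57.9%) and 11 of 30 of the contractile list (36.7%), against 14.7% of all promoters. Octamer letters were in 2 of 15 promoters of the naive list (13.3%) and 4.60% of all, and Sox letters in 2 of 15 and 12.8% of all. The lists, unlike all promoters, were limited to genes with a mean of at least 5. Under that limit, promoters of genes that rose, fell and were not called held octamer letters in 3.63%, 3.48% and 3.30%. For Sox letters these shares were 6.28%, 6.62% and 7.12%, and for TEAD letters 13.5%, 11.4% and 11.8%. TEAD letters can share the GG that ends a CArG box, and Sox and octamer letters can share ATG. The YAP and TEAD list holds targets of these factors, and many contractile genes are SRF targets. Their shares therefore go with how the lists were chosen, and no role of a factor in state 3 was tested. A match is a description of these letters in this window.

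Genes of the extracellular matrix rose, with exceptions among the most widely used components. Fibrillar and interstitial matrix genes rose in 22 of 35 measured cases and fell in 1, with a median of 1.86. Beside the collagens Col3a1 and Col1a1 given above, Lox, a collagen cross-linking oxidase, Col12a1, Bgn (biglycan) and Tnc (tenascin C) had log2 ratios of 4.97, 4.90, 4.86 and 4.67. Bgn had 141 in state 3, 16.3 in state 2 and 3.86 in state 1 and Tnc had 49.2 in state 3, 3.89 in state 2 and 0.970 in state 1. Fn1, fibronectin, was the member that fell, with 17691 in state 3, 24793 in state 2 and 27059.6 in state 1. The summed value of the list was 31198 in state 3, 31942 in state 2 and 30458 in state 1, with Fn1 included.

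Of 26 basement membrane genes 14 rose and 1 fell, with a median of 1.60. Col4a5 had 32.2 in state 3, 11.8 in state 2 and 1.93 in state 1, and Fras1, a basement membrane adhesion protein, had 364 in state 3, 184 in state 2 and 33.6 in state 1. The laminin chains Lamb3 and Lama4 had log2 ratios of 3.00 and 2.72, whereas the widely used chain Lamc1 fell, with 10619 in state 3, 8932 in state 2 and 13202 in state 1. Over all 44 measured collagen genes, 17 rose and 2 fell, namely Col9a2 and Col13a1, with log2 ratios of -1.32 and -1.17.

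Receptors for the matrix rose in 21 of 27 members and fell in 2, with a median of 1.16. Cd44 led the list (log2 5.54). Itgb8 had 112 in state 3, 42.1 in state 2 and 2.26 in state 1, and Itga3, a laminin-binding integrin, had 9869.7 in state 3, 3989 in state 2 and 1695 in state 1 (log2 2.54). Itga4, Itga8 and the proteoglycan Sdc3 had log2 ratios of 3.78, 2.77 and 3.84. The collagen receptor kinase Ddr2 fell, with 2.92 in state 3, 3.30 in state 2 and 33.6 in state 1, and Itga9 also fell (log2 -1.87).

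Matrix proteases and their inhibitors rose in 25 of 33 members and fell in 2, with a median of 1.20. Plau, the urokinase plasminogen activator, had 211 in state 3, 40.2 in state 2 and 12.9 in state 1, and the metalloproteases Adam12 and Adamts5 had log2 ratios of 4.42 and 3.78. The inhibitors Timp4 and Serpinb9 also rose, by 3.71 and 3.60 on the log2 scale, so proteases and inhibitors moved in the same direction. Htra1 and Mmp11 were the members that fell, with log2 ratios of -0.98 and -0.76.

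Cell junction genes rose in 29 of 47 members and fell in 8, with a median of 0.87. Desmosomal Dsp (desmoplakin) and Dsc2 (desmocollin 2) had 4715 in state 3, 1435 in state 2 and 231 in state 1, and 353 in state 3, 74.0 in state 2 and 10.0 in state 1. Cldn7, a claudin of tight junctions, had 432 in state 3, 261 in state 2 and 51.4 in state 1. Cdh2 rose beside Cdh1, and Zeb2, a repressor of E-cadherin, had 477 in state 3, 148 in state 2 and 35.8 in state 1. Jam2 led the falls (log2 -3.88). Thus cadherins of both epithelial and mesenchymal type were higher in state 3.

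Intermediate filament genes rose in 8 of 21 members and fell in 2, with a median of 0.57. Besides Krt8, Krt18, Krt19, Krt7 and Nes, the rises included Krt14, a basal epithelial keratin, with 17.6 in state 3, 2.99 in state 2 and 3.25 in state 1. Krt42 fell, with 19.8 in state 3, 98.7 in state 2 and 182 in state 1, and the lamin gene Lmnb2 fell (log2 -0.65). Among all 33 measured keratins 7 rose (21.2%, against a background of 19.8%) and 1 fell (3.03%, against 15.7%). Of these keratins 10 had a mean of at least 5.

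**Figure D3:**
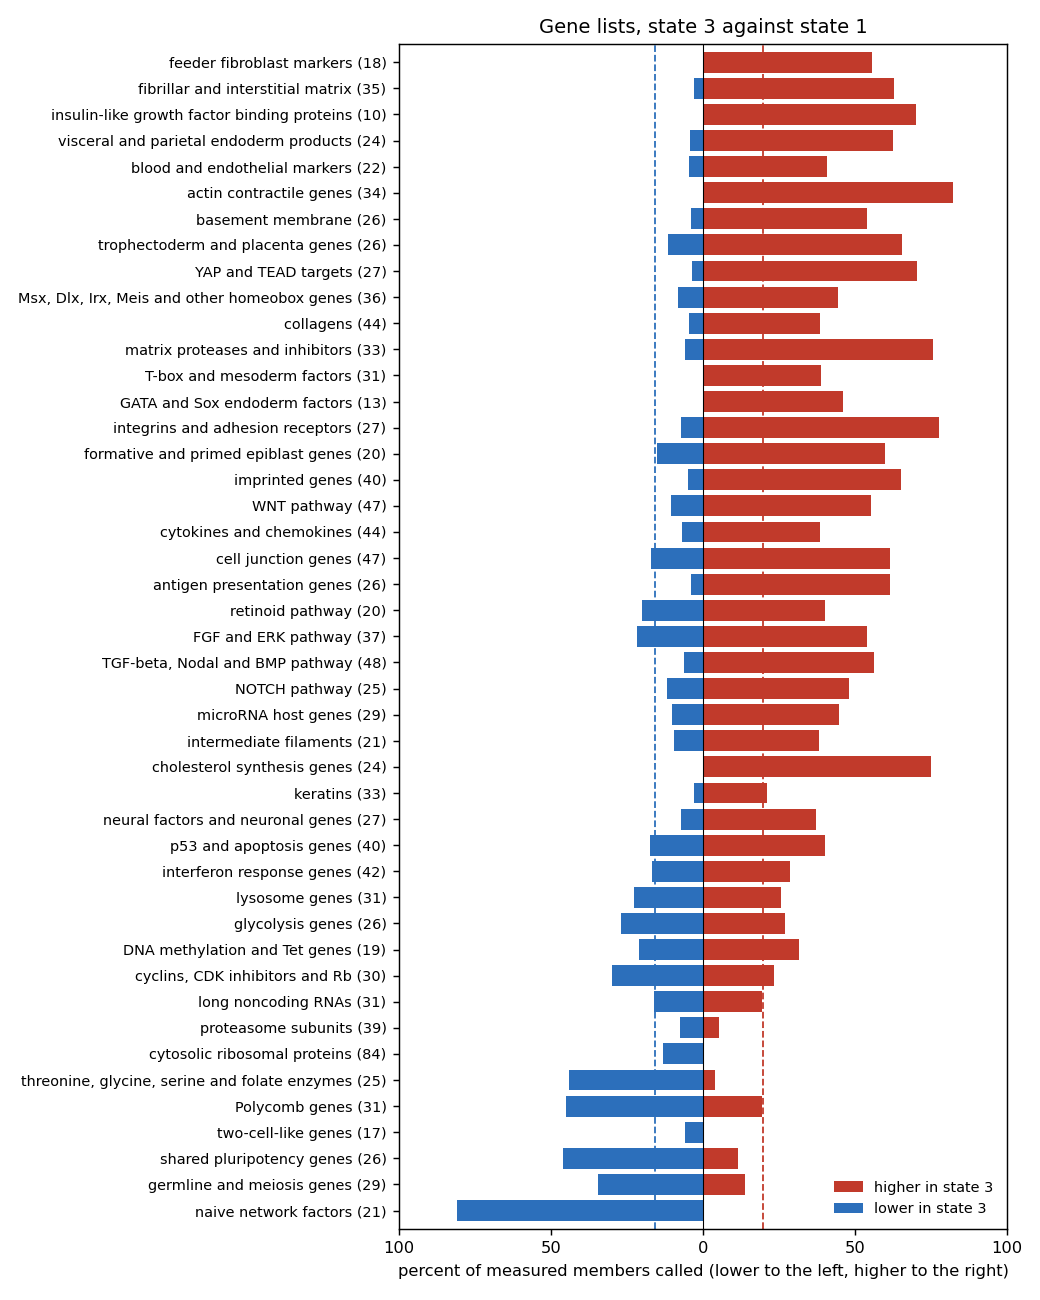
Bars give, for each list, the percent of measured members called higher in state 3 (red, to the right) and lower (blue, to the left), with the number of measured members in brackets and lists ordered by median log2 ratio, highest at the top. Dashed lines mark the shares among all genes with a mean of at least 5, 19.8% higher and 15.7% lower. Some lists also hold members with a mean below 5. The actin contractile genes and the naive network factors lie furthest beyond the lines.

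Signalling genes changed in ligands, receptors and inhibitors alike. In the TGF-beta, Nodal and BMP pathway 27 of 48 genes rose and 3 fell, with a median of 0.64. Among ligands, Bmp2 had 37.4 in state 3, 5.26 in state 2 and 0.640 in state 1, Inhba had 20.1 in state 3, 5.30 in state 2 and 0.320 in state 1 and Tgfb2 had 209 in state 3, 32.2 in state 2 and 14.8 in state 1. Bmp4 fell, with 155 in state 3, 103 in state 2 and 569 in state 1, and Inhbb, given above, fell most (log2 -4.17). Inhba and Inhbb, which encode the beta A and beta B subunits of activins, thus moved in opposite directions. Among inhibitors, the BMP antagonist Nog (noggin) had 74.1 in state 3, 12.7 in state 2 and 0.320 in state 1, and the Nodal antagonists Lefty1 and Lefty2 had 2824 in state 3, 2947 in state 2 and 272 in state 1, and 2206 in state 3, 1314 in state 2 and 297 in state 1. The receptor Acvr1b fell (log2 -0.62).

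In the WNT pathway 26 of 47 genes rose and 5 fell, with a median of 1.08. The ligands Wnt4 and Wnt3 had 308 in state 3, 42.8 in state 2 and 5.86 in state 1, and 252 in state 3, 51.0 in state 2 and 4.84 in state 1. Wnt5a and Wnt9a had log2 ratios of 3.90 and 3.59, and the nuclear effector Lef1 one of 3.48. Notum, an extracellular deacylase that inactivates Wnt ligands, had 18.8 in state 3, 46.1 in state 2 and 199.9 in state 1. The receptor Fzd5, the acyltransferase Porcn, which Wnt ligands need for secretion, the secreted inhibitor Sfrp1 and the repressor Tcf7l1 were the other members that fell, with log2 ratios of -1.81, -1.80, -1.21 and -0.54.

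In the FGF and ERK pathway 20 of 37 genes rose and 8 fell, with a median of 0.68. Beside Fgf5, the intracellular family member Fgf13 had 152 in state 3, 74.1 in state 2 and 12.2 in state 1 and the receptor Egfr had 480.3 in state 3, 196 in state 2 and 54.2 in state 1. Phlda1 had 494 in state 3, against 67.8 in state 1. The receptor Kit, which is needed by germ cells and blood progenitors, fell, with 122 in state 3, 249.8 in state 2 and 980.3 in state 1, and Fgf1 fell, with 5.13 in state 3, 12.4 in state 2 and 43.2 in state 1. The FGF ligands therefore did not share a direction.

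In the NOTCH pathway 12 of 25 genes rose and 3 fell, with a median of 0.62. Maml2, a coactivator, had 76.5 in state 3, 51.5 in state 2 and 3.56 in state 1, the glycosyltransferase Lfng had 296 in state 3, 166 in state 2 and 39.4 in state 1 and the ligand Dll1 had 68.1 in state 3, 61.7 in state 2 and 11.9 in state 1. The receptor Notch3 rose (log2 1.76), whereas Notch4, Notch1 and the DNA-binding effector Rbpj fell, with log2 ratios of -1.52, -0.41 and -1.11. Retinoid genes were divided, with 8 of 20 higher and 4 lower. The carrier Crabp2 had 204 in state 3, 77.7 in state 2 and 27.8 in state 1, the retinal-reducing Dhrs3 had 83.4 in state 3, 40.3 in state 2 and 13.9 in state 1 and the nuclear receptor Rxrg had 124 in state 3, 127 in state 2 and 22.9 in state 1. Stra8, a retinoic acid target of meiotic entry, fell, with 44.7 in state 3, 125 in state 2 and 383 in state 1 (log2 -3.07).

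Secreted growth factors and their carriers rose. Of 44 measured cytokines, chemokines and receptors 17 rose and 3 fell, with a median of 1.08. Igf2, an imprinted growth factor, had 5784 in state 3, 2209 in state 2 and 227 in state 1 (log2 4.67). Pdgfb had 397 in state 3, 145 in state 2 and 33.1 in state 1, the alarmin Il33 had 103 in state 3, 32.6 in state 2 and 8.09 in state 1, and the chemokines Cxcl10 and Ccl20 had 23.1 in state 3, against 0.320 in state 1, and 14.1 in state 3, against 0.330 in state 1. Vegfc, Spp1 (osteopontin) and Pdgfa fell, with log2 ratios of -1.88, -1.36 and -0.74, so the PDGF ligands Pdgfb and Pdgfa parted. Of 10 members of the insulin-like growth factor binding list 7 rose and 0 fell, with a median of 1.86. Igfbp3 had 1839 in state 3, 493 in state 2 and 136 in state 1, Igfbp5 had 151 in state 3, 25.2 in state 2 and 5.51 in state 1 and Igfbp4 had 523 in state 3, 202 in state 2 and 92.4 in state 1. Igfbp6, Igfbp7 and Igfbp2 had log2 ratios of 3.01, 2.87 and 1.23.

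**Figure D4:**
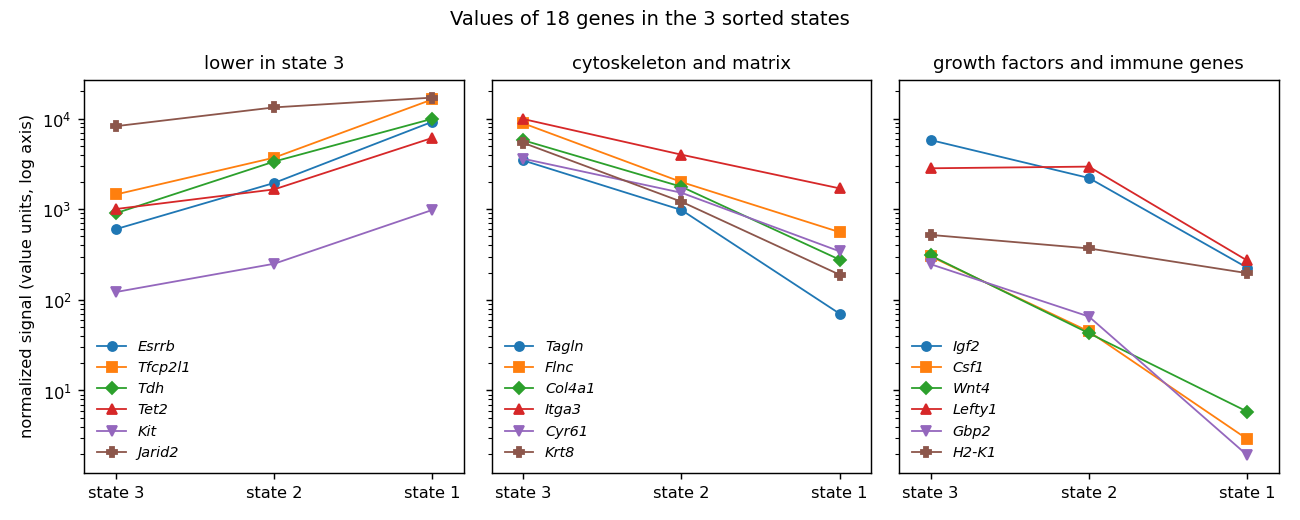
Normalized values (log axis) of 18 genes in state 3, state 2 and state 1, from left to right, with 1 merged value per state and lines that only join the values of a gene. The genes of the left panel are lowest in state 3, and those of the middle panel highest; in the right panel Lefty1 has 2824 in state 3 and 2947 in state 2, against 272 in state 1.

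Interferon response genes did not share a direction. Of 42 measured genes 12 rose (28.6%, against a background of 19.8%) and 7 fell (16.7%, against 15.7%), with a median of 0.32. Gbp2 led the rises, the GTPase Irgm1 had 92.9 in state 3, 93.6 in state 2 and 6.15 in state 1, Irf2 had 66.0 in state 3, 15.2 in state 2 and 1.61 in state 1 and Oasl2 had 40.1 in state 3, 59.6 in state 2 and 4.17 in state 1. Gbp3 had 11.1 in state 3, against 0.320 in state 1. Oas1a, an oligoadenylate synthetase, fell, with 1.64 in state 3, 5.30 in state 2 and 24.4 in state 1. Antigen presentation genes rose in 16 of 26 members and fell in 1, with a median of 0.87. B2m, the light chain of MHC class I, had 238 in state 3, 126 in state 2 and 86.8 in state 1, the peptide-trimming Erap1 had 204 in state 3, 151 in state 2 and 32.0 in state 1 and the immunoproteasome subunit Psmb8 had 23.8 in state 3, 20.9 in state 2 and 0.320 in state 1. H2-Q7, a nonclassical class I gene, had 86.9 in state 3, 70.0 in state 2 and 28.9 in state 1, and Ciita, the activator of class II genes, had 8.15 in state 3, 7.47 in state 2 and 0.650 in state 1. Cd1d1, which presents lipids, fell, with 8.01 in state 3, 13.2 in state 2 and 29.2 in state 1. Class I genes of this family share sequence, and the sources used here do not state how reads that match several of them were divided.

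Cell cycle genes went in both directions. Of 30 cyclins, CDK inhibitors and Rb family genes 7 rose (23.3%, against a background of 19.8%) and 9 fell (30%, against 15.7%). Their median log2 ratio was -0.09. The CDK inhibitors Cdkn1c (p57), Cdkn1a (p21), Cdkn2b (p15) and Cdkn2a rose, with 3301 in state 3, 1364 in state 2 and 498 in state 1, with 693 in state 3, 455 in state 2 and 247 in state 1, with 41.2 in state 3, 22.2 in state 2 and 5.17 in state 1, and with 39.1 in state 3, 24.0 in state 2 and 10.6 in state 1. Ccnd3, a D-type cyclin, fell, with 2001 in state 3, 1917 in state 2 and 4999 in state 1, whereas the cyclins Ccne2 and Ccnd2 rose (log2 1.27 and 1.21), and E2f2 fell, with 165 in state 3, 169.7 in state 2 and 590.4 in state 1. In the p53 and apoptosis list 16 of 40 rose and 7 fell. Bcl2, which protects from apoptosis, had 198 in state 3, 119.8 in state 2 and 21.6 in state 1. Perp had 1935 in state 3, 928 in state 2 and 485 in state 1 and Gadd45g had 73.2 in state 3, 51.7 in state 2 and 8.37 in state 1, whereas Sesn1 fell (log2 -1.42).

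Metabolic lists moved in different directions. Mouse embryonic stem cells catabolise threonine through threonine dehydrogenase. Its gene Tdh had 902 in state 3, 3349 in state 2 and 9930.0 in state 1 (log2 -3.46), and of 25 threonine, glycine, serine and folate enzymes 11 fell and 1 rose, with a median of -0.29. Gcat, which works next after Tdh, had 347 in state 3, 466 in state 2 and 613 in state 1. Cbs, Shmt1 and Mtr fell, with log2 ratios of -1.49, -0.76 and -0.74, and Mthfd2l was the member that rose (log2 1.06). Cholesterol synthesis and uptake genes rose in 18 of 24 members and fell in 0, with a median of 0.45. The synthesis enzyme genes Sc5d and Cyp51 had 614 in state 3, 459 in state 2 and 313 in state 1, and 1303 in state 3, 1132 in state 2 and 753 in state 1, and Hsd17b7 had a log2 ratio of 0.84.

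Glycolysis genes were split evenly, with 7 of 26 higher and 7 lower (26.9% each) and a median of 0.04. The background shares were 19.8% higher and 15.7% lower. Pfkfb3 and the lactate exporter Slc16a3 rose, with 708 in state 3, 317 in state 2 and 195 in state 1, and with 1072 in state 3, 755 in state 2 and 298 in state 1. Pfkp, Pdk1, Hk1 and Ldhb fell, with log2 ratios of -1.70, -1.36, -1.01 and -0.94. Lysosome genes were likewise divided, with 8 of 31 higher (25.8%) and 7 lower (22.6%), against the same background. The cathepsins Ctsc and Ctsl rose (log2 2.42 and 1.20), and beta-galactosidase Glb1 and the lysosomal regulator Tfeb fell (log2 -1.51 and -1.04).

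Chromatin genes showed changes within families. Of 19 DNA methylation and Tet genes 6 rose and 4 fell, with a median of -0.05. Tet enzymes oxidise methylated cytosine. Tet1 and Tet2 fell, with 7625 in state 3, 13765 in state 2 and 22009.6 in state 1, and with 1004 in state 3, 1652 in state 2 and 6108 in state 1, whereas Tet3 rose, with 1762 in state 3, 1180.4 in state 2 and 614 in state 1. The de novo methyltransferase Dnmt3b had 7342 in state 3, 8874 in state 2 and 3139 in state 1, and the maintenance enzyme Dnmt1 fell (log2 -0.42). Polycomb genes fell in 14 of 31 members and rose in 6, with a median of -0.30. The PRC2 accessory genes Phf19 and Mtf2 had 123 in state 3, 137 in state 2 and 319.6 in state 1, and 1505 in state 3, 2239 in state 2 and 3369 in state 1. Cbx8, a chromobox protein of PRC1, rose, with 26.3 in state 3, 16.0 in state 2 and 11.6 in state 1, as did Phc2 (log2 1.25) and Yaf2 (log2 1.95).

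Germline and meiosis genes fell in 10 of 29 members and rose in 4, with a median of -0.82. Beside Stra8 and Kit, the piRNA pathway genes Piwil2 and Tdrd12 had 143 in state 3, 278 in state 2 and 489 in state 1, and 97.1 in state 3, 350.3 in state 2 and 343 in state 1. Other Tudor genes moved the opposite way: Tdrkh had 166 in state 3, 103 in state 2 and 50.8 in state 1, Tdrd1 had 192 in state 3, 177 in state 2 and 80.0 in state 1 and Tdrd5 had a log2 ratio of 0.75, with the helicase Ddx4 at 0.71. Of 17 measured genes of the rare cells that resemble the cleavage-stage embryo, 1 was called, the broadly expressed translation factor Eif1a (log2 -0.35), which was also the sole member with a mean of at least 5 and is no marker of those cells. The others were too low to judge: Zscan4c, which marks those cells, had 1.53 in state 3, 0.560 in state 2 and 2.94 in state 1, and near-identical copies share its reads.

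Imprinted genes, which are expressed from a single parental allele, rose in 26 of 40 members and fell in 2, with a median of 1.15. Paternally and maternally expressed members both rose. Igf2 and H19, neighbours that share an imprinting control region, had log2 ratios of 4.67 and 4.06, and H19 had 167 in state 3, 77.2 in state 2 and 9.05 in state 1. Dlk1 and Rtl1, from a common domain on chromosome 12, had 197 in state 3, 68.2 in state 2 and 18.7 in state 1, and 36.4 in state 3, 6.47 in state 2 and 3.23 in state 1. Cdkn1c, maternally expressed, is given above. Airn, which runs antisense to Igf2r, had 12.1 in state 3, 5.87 in state 2 and 1.29 in state 1. The libraries were strand-marked per the labels, but the sources used here do not state whether the counting used strand. Ddc and Copg2 fell (log2 -0.85 and -0.59). Zfp57, a zinc finger protein that guards imprints and is counted with the naive factors, had 1014 in state 3, 1173 in state 2 and 4718 in state 1 (log2 -2.22).

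Of 31 long noncoding RNAs 6 were higher (19.4%) and 5 lower (16.1%). These shares were near those of all genes with a mean of at least 5, 19.8% and 15.7%. Lncenc1, a noncoding RNA abundant in naive cells, had 222 in state 3, 792 in state 2 and 611 in state 1, with state 3 alone low. Mir22hg and Miat rose (log2 1.40 and 1.04). Of 84 ribosomal protein genes 73 were not called, 11 fell (13.1%, against 15.7% of all genes with a mean of at least 5) and 0 rose, with a median of -0.20. The widest falls were in the paralogs Rpl10l and Rpl39l, with 8.04 in state 3, 20.6 in state 2 and 36.3 in state 1, and with 27.2 in state 3, 81.0 in state 2 and 90.6 in state 1. Rps20, a core subunit gene, had 9663 in state 3, 10921 in state 2 and 12129 in state 1. Many processed pseudogenes resemble these genes, and the division of shared reads is likewise not stated. Proteasome genes were mostly uncalled, with 2 of 39 higher (Psmb8 and Psma7) and 3 lower (Psma8, Psmd5 and Psma4). Psma8, a testis-enriched subunit, had 29.3 in state 3, 85.0 in state 2 and 97.5 in state 1, while Psma7, Psmd5 and Psma4 had log2 ratios of 0.20, -0.34 and -0.15.

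Small RNA libraries D and E bear other replicate letters than RNA-seq libraries A to C, and the titles do not say whether they share cultures. Hairpins, the precursors of microRNAs, are set here beside the genes they lie within, across these different libraries and scalings. Mature sequences from RefSeq are shown for hairpins set beside such genes below, with the seed, bases 2 to 8, in capitals. The miR-26 pair shares the seed UCAAGUA:
mmu-miR-26a-5p: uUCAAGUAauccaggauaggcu
mmu-miR-26b-5p: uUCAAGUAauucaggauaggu
The pair from the Mcm7 intron shares AAAGUGC:
mmu-miR-93-5p: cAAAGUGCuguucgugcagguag
mmu-miR-106b-5p: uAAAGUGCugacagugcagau
The pair placed within Larp7 shares AAGUGCU, the same letters moved by 1 base:
mmu-miR-302b-3p: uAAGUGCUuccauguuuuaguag
mmu-miR-302d-3p: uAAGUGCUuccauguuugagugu

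The small RNA table held 428 called features of 26278 (1.63%), 145 higher in state 3 (0.552%) and 283 lower (1.08%). Of its 605 hairpins 153 were called (25.3%), 17 higher in state 3 (2.81%) and 136 lower (22.5%), and their median log2 ratio was -0.59. Hairpin totals were 1.01, 2.00 and 3.33 M value units in state 3, state 2 and state 1, and totals over all small RNA features were 2.61, 3.43 and 5.13 M. The directions of hairpins depend on this scaling. With state 3 and state 1 set to the same small RNA total, which adds 0.97 to a log2 ratio, 28 of the called hairpins were higher and 125 lower, with a median of 0 over all hairpins. With the same hairpin total, which adds 1.72, 72 were higher and 81 lower, with a median of 0.45. Both scalings were added after the data were seen, and the ratios that follow are on the deposited scale. Mcm7, a helicase subunit, fell with 5437 in state 3, 5945 in state 2 and 7328 in state 1, and its hairpins mmu-mir-106b, mmu-mir-93 and mmu-mir-25 fell with log2 ratios of -1.44, -1.71 and -1.81, which became 0.29, 0.012 and -0.08 with the same hairpin total. Larp7 rose (log2 0.32). The hairpins mmu-mir-302b, mmu-mir-302c and mmu-mir-302d, which lie within Larp7, rose with log2 ratios of 2.53, 2.94 and 2.64. They were higher under both other scalings too. RefSeq places mmu-miR-302b-3p and mmu-miR-302d-3p on the plus strand, and the strand of Larp7 was not compared. Whether these hairpins come from the Larp7 transcript was not tested. The hairpin mmu-mir-302a had 1585 in state 3, 1575 in state 2 and 306 in state 1, and was not called at a summed score of 0.828. Igf2 and its hairpin mmu-mir-483 both rose, the hairpin with 181 in state 3, 45.9 in state 2 and 15.3 in state 1.

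The phosphatase genes Ctdsp2, Ctdsp1 and Ctdspl host the miR-26 hairpins. Ctdsp2 fell (log2 -0.72) with mmu-mir-26a-2 (log2 -3.04). Ctdsp1 rose, with 1467 in state 3, 1078 in state 2 and 765 in state 1, while its hairpin mmu-mir-26b fell, with 637 in state 3, 1300.1 in state 2 and 2080.1 in state 1, a log2 ratio of -1.71 that became 0.018 with the same hairpin total. Ctdspl was not called (log2 0.93) and mmu-mir-26a-1 fell (log2 -3.07), but the miR-26a hairpins share their mature sequence, so their reads cannot be assigned to 1 of them. Mest rose, with 3148 in state 3, 1795 in state 2 and 1543 in state 1, while mmu-mir-335, in its intron, had 6723 in state 3, 10022 in state 2 and 18501 in state 1 and was not called. Smc4 and Egfl7 were not called, whereas mmu-mir-15b, mmu-mir-16-2 and mmu-mir-126a fell, with log2 ratios of -1.34, -1.72 and -2.15, which became 0.38, -0.01 and -0.42 with the same hairpin total. Whether the reads of mmu-mir-16-2 are shared with another hairpin was not examined, so its fall may not belong to the copy in Smc4. The miR-26a hairpins stayed lower under both scalings, at -1.32 and -1.34 with the same hairpin total.

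Placed by RefSeq on GRCm38, called genes were unevenly spread over chromosomes. Of 15204 placed genes with a mean of at least 5, 21.1% rose and 16.9% fell, or 1.25 genes that rose for each that fell. The mitochondrial and Y chromosomes, with 2 genes and 1 gene, are left aside. On the X chromosome, of 555 genes, 27.4% rose and 11.2% fell, a ratio of 2.45, with a median log2 ratio of 0.15. Chromosomes 13 and 12 followed with ratios of 2.14 and 2.11. On chromosomes 17, 11 and 9 more genes fell than rose, with 16.1% higher and 20.1% lower, with 18.0% higher and 20.2% lower, and with 19.1% higher and 19.3% lower.

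**Figure D5:**
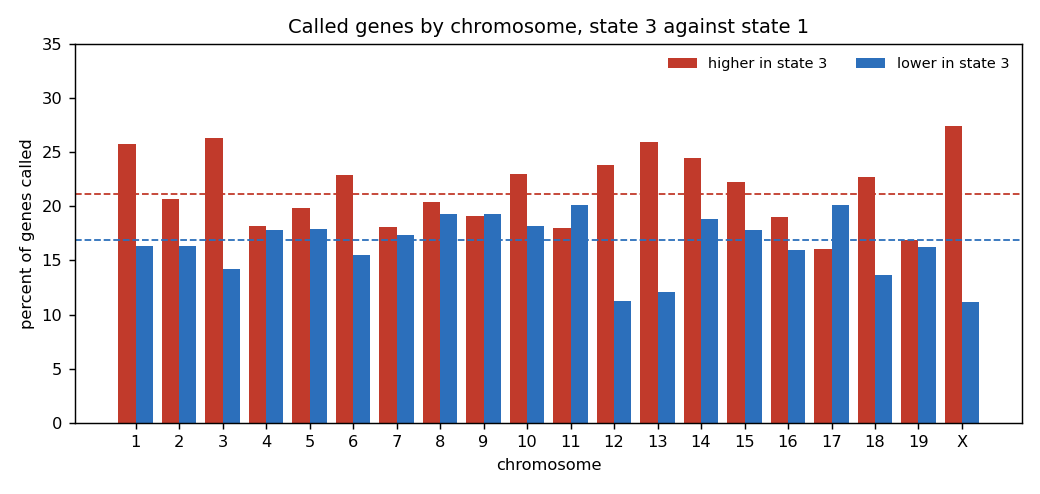
Bars give, for each autosome and the X chromosome, the percent of placed genes with a mean of at least 5 that were called higher (red) and lower (blue) in state 3, with dashed lines at the shares over all placed genes, 21.1% and 16.9%. Among these, the X chromosome has the highest share of genes that rose (27.4%) and the lowest share that fell (11.2%).

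Runs of at least 4 neighbouring genes called in 1 direction numbered 50 for rises and 38 for falls, and the X chromosome held 9 of the runs that rose and 1 of those that fell. The longest run was 11 histone genes on chromosome 13 (21717628 to 21810199), among them Hist1h3h, Hist1h4k and the linker histone Hist1h1b. Hist1h1b had 6287 in state 3, 6485 in state 2 and 4471 in state 1, Hist1h3h had 3136 in state 3, 3312 in state 2 and 2100.5 in state 1 and Hist1h4k had 3163 in state 3, 3319 in state 2 and 2020.2 in state 1, so state 2 and state 3 were alike and state 1 stood lower. Over all 69 genes named Hist1 to Hist4, a group chosen after its values were seen, 48 rose and 0 fell, with a median log2 ratio of 0.57 and the values summed to 225191 in state 3, 240518 in state 2 and 154027 in state 1. Histone genes of the clusters are near-identical copies whose mRNAs mostly lack a poly(A) tail, which the rRNA-depleted libraries do not require.

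The next longest run was the 9 Hoxb genes from Hoxb9 to Hoxb1 on chromosome 11 (96271330 to 96368254). Hoxb1 had 38.5 in state 3, 8.37 in state 2 and 1.31 in state 1 and Hoxb9 had 68.3 in state 3, 19.3 in state 2 and 33.9 in state 1. Hoxa genes on chromosome 6 and 4 Hoxc genes on chromosome 15 formed further runs. A run on chromosome 1 (44106546 to 45503282) held the collagens Col3a1 and Col5a2, and one on chromosome 10 (18317665 to 19610229) held Perp, Olig3 and Ifngr1, the interferon gamma receptor. Lefty1 and Lefty2 rose in a run on chromosome 1 with Tmem63a. Of the runs that fell, one on chromosome 17 (36954358 to 37074305), beside the MHC, held H2-M5, Zfp57 and the GABA receptor gene Gabbr1.

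At the X inactivation centre, Jpx, Ftx and Rlim, neighbours that promote Xist, rose in a run. Rlim, a ubiquitin ligase, had 7032 in state 3, 7673 in state 2 and 3635 in state 1, Ftx had 283 in state 3, 328 in state 2 and 160.0 in state 1 and Jpx had 32.5 in state 3, 40.8 in state 2 and 10.0 in state 1. Xist, the noncoding RNA of X inactivation, had 3.68 in state 3, 7.67 in state 2 and 9.33 in state 1 and was not called, and its antisense partner Tsix fell (log2 -0.60). In all of Rlim, Ftx and Jpx state 2 was at or above state 3.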

How the data were processed

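After sorting, total RNA was extracted with Trizol and treated with DNase, and the RNA-seq libraries were depleted of rRNA and marked for strand with dUTP, per the labels. The submitters' processing notes name the builds mm10 and GRCm38 and the tools RSEM 1.2.30 and STAR 2.4.1d. The sources used here do not state how libraries were scaled and merged. Both tables give a signal per feature and group, normalized by the authors but with unequal column totals. They also hold 15 score columns deposited by the authors, each the EBSeq posterior probability of 1 pattern of which groups are equal. The patterns are not spelled out. They were read in EBSeq order over the columns state 3, state 2, state 1 and total population. The order was checked on 2360 RNA-seq genes and 247 small RNA features. Their mean was 5 or more and their top score 0.9 or more. Those whose top pattern set all groups equal or all groups apart were left out. Each was compared only with patterns that have as many distinct levels as its top pattern. With this order the pattern of the highest score was the one nearest to the values in 98.6% and 97.2% of them. An order with state 1 and the total population exchanged gave 95.3% and 83.4%.

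Calls summed the scores of all patterns that set state 3 and state 1 apart, with a limit of 0.95. Ratios used a pseudocount of 1. The scripts were checked on artificial data first. Members of the 45 gene lists, the host and hairpin pairs and the motifs were chosen with earlier results of these data known, and lists were described by counts and medians without a test. The text names Nanog, Sox2 and Pou5f1, then the 12 widest rises and falls among called genes with at least 5 parts in 1e6 of the column total (no predicted models, clones, pseudogenes or small RNA classes), the 10 largest changes in value each way, up to 6 called members of each list (with the 2 most abundant uncalled members where fewer were called), genes in runs of at least 4 neighbours, and members that make up a count of 5 or fewer. Gata6, Srf, Yap1, Tead1, Thy1, Prrx1, Dcn, Lum, Xist, Tsix, Krt20, Ccnd2 and Ccne2 were named after their values were seen. Some genes that these rules select are not reported here. Names of 23644 genes matched RefSeq GRCm38 by symbol or unambiguous synonym, and coordinates are from that table. The 18 features without a name (0.0195% of the state 1 total) entered the counts over all genes and no list. The authors' deposited fold columns were not used. Python 3.11.15, numpy 2.4.6 and pandas 2.3.3 were used. Alternatives are in the closing section.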

Additional observations from a re-analysis of the deposited data

How the results depend on the processing

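A pseudocount cannot change a direction. Pseudocounts of 0.1 and 5 moved 154 and 254 of the 653 named called genes by 0.1 or more in log2 ratio. Directions of all 653 were kept under a common column total, the same without the noncoding gene Gm26917 (10.4% to 12.6% of a column), and a common upper quartile. These scalings shifted log2 ratios by medians of only 0.036, 0.022 and 0.015, so they could turn only narrow ratios. Quantile rescaling kept all 653 directions too. The scores were not refitted under any setting. Quantile rescaling was used for directions after the data were seen. Among genes with a mean of at least 5 it shifted log2 ratios by a median of -0.11. Over all called genes it gave 3394 higher and 2675 lower. The count of 6070 calls was 5383 at a limit of 0.99, 6454 at 0.90, 5671 with the other pattern order and 5989 with a mean of at least 5. Asking for at least a 2-fold difference beside the score left 2766 genes, 1933 higher and 833 lower, since most falls were smaller than 2-fold, and the share of rises among calls was then 69.9%, against 55.9% without it. A 2-fold difference whatever the score gave 5940 genes, 4054 of them higher (68.2%). Of 90 list counts (higher and lower for 45 lists), 40 moved by over 1.5 times under the added 2-fold limit, 3 at 0.90, and 0 at 0.99 or with the other pattern order. For hairpins (17 called higher, 136 lower, median log2 ratio -0.59), the same small RNA total gave 28 higher and 125 lower, and the same hairpin total 72 higher and 81 lower with a median of 0.45; that hairpin total turned mmu-mir-106b, mmu-mir-93, mmu-mir-26b and mmu-mir-15b to 0.29, 0.0118, 0.0176 and 0.38. No paired analysis was possible because the table holds 1 merged value per state, so the fit with a replicate block and the fits that leave out library A, B or C were not run. Depth limits genes under about 5: 81 of 12819 with a mean below 5 were called, against 20.2% of 5251 genes between 5 and 50.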

Other observations

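In the unsorted total population, which enters no comparison above, Nanog had a value of 2783, Sox2 3954, Esrrb 6799, Tagln 425, Cdx2 32.0 and Krt8 739.

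By annotation class, 3199 of 18045 protein-coding genes rose (17.7%) and 2490 fell (13.8%), against 11.4% and 9.01% of all genes. Of 1975 lincRNA genes 23 rose (1.16%) and 50 fell (2.53%), and of 1514 antisense RNA genes 17 rose (1.12%) and 16 fell (1.06%). No limit on level was set for these shares, and genes with a mean below 5 were rarely called. With the mean of state 3 and state 1 at 5 or more, promoters of genes that rose had a median GC content of 63.7% and a median of 21 CpG sites in 300 bases. Promoters of genes that fell had 60.3% and 20 sites, and those of genes not called 60.7% and 20 sites. At low values a wide ratio was not always called: Krt20, a keratin of the gut, had 18.0 in state 3, against 0.320 in state 1, and was not called.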
